A study of Mus musculus with 4 samples.

Results

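Of the 32245 gene symbols counted in these libraries, 43 belong to the nuclear-encoded subunits of respiratory complexes III, IV and V. They were taken by name: all symbols that start with Uqcr for complex III, with Cox4i, Cox5, Cox6, Cox7 or Cox8 for complex IV, or with Atp5 for complex V, without pseudogene names that carry -ps. The rule gave 8 genes of complex III, 18 of complex IV and 17 of complex V, and 36 of them had at least 1000 UMIs (unique molecular identifiers, each counting 1 captured RNA molecule) in kept cells. The other 7 are tissue-restricted isoforms of complex IV, with 220 UMIs of Cox4i2, 263 of Cox6b2, 65 of Cox7a1, 40 of Cox8b, 29 of Cox6a2, 2 of Cox7b2 and 0 of Cox8c. For Cox8c, 0 of 54977008 UMIs allows up to 3. Together the 43 genes made up 1.98% of all UMIs in kept cells.

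The RNA came from dissociated cells of the upper-jaw gingiva of mice, the gum tissue around the teeth, in droplet libraries. There were 4 groups with 1 library each: healthy gingiva, gingiva under metformin and no disease, diseased gingiva, and diseased gingiva under metformin. The drug metformin lowers blood glucose and is known as an inhibitor of respiratory complex I, and the study asked about its effect on the gingiva in the prevention of periodontal disease. The strain, sex, age and number of mice, the way disease was produced and the dose and duration of metformin are not given in the sources used here. With 1 library per group no test between groups was possible, and no p-value is given.

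Complexes III, IV and V are the last steps of oxidative phosphorylation in the inner mitochondrial membrane. Complex III passes electrons from ubiquinol to cytochrome c, complex IV passes them on to oxygen, and complex V, the ATP synthase, uses the proton gradient that the other complexes build to make ATP. A few catalytic subunits are encoded in mitochondrial DNA and the rest in the nucleus, so a working complex needs transcripts of both genomes. Epithelia that secrete fluid are known for many mitochondria, while stratified epithelium is known to rely in part on glycolysis.

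The libraries held 12507787 UMIs in 1616 barcodes (healthy), 22333858 in 2814 (metformin), 14151700 in 1972 (disease) and 13025479 in 1893 (disease plus metformin), of which 1307, 2473, 1692 and 1653 cells were kept. Values below follow this order of libraries. Pairs of libraries shared 0 to 2 barcodes. Cells were grouped into classes by clustering without the 43 genes and without mitochondrial genes, and named from marker lists. Keratinocyte-like cells, the surface epithelium, numbered 706, 1254, 1082 and 710. Gland-like cells numbered 350, 302, 253 and 535. The small classes over all libraries were 245 blood endothelial-like, 135 fibroblast-like, 131 leukocyte-like, 48 pericyte and smooth muscle-like, 31 Schwann-like and 100 erythroid-like cells. Another 1243 cells stayed unnamed. Keratinocyte-like clusters raised 11 to 21 of 23 keratinocyte markers and gland-like clusters 18 to 24 of 26 gland markers, while the fibroblast-like cluster raised 12 of 12 and the pericyte and smooth muscle-like cluster 13 of 13 of theirs. A feature that bears on the mitochondrial values is that 45.2%, 47.4%, 30.9% and 58.3% of keratinocyte-like barcodes held no mitochondrially encoded UMI, against 7.43%, 10.9%, 5.93% and 8.97% of gland-like ones.

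The c subunits of complex V and the complex III core protein Uqcrc1 carry the clearest differences described below, so the sequences before their RefSeq start sites are shown. Atp5g1, Atp5g2 and Atp5g3 encode the same mature c subunit, which forms the membrane ring of ATP synthase, and differ in the import peptide and in their regulatory sequence. Promoter sequences are from RefSeq (GRCm38.p6), within the 250 bases before each start and without bases that GENCODE M21 annotates as exon. They run 5′ to 3′ in the direction of the gene, and capitals mark the letters CCAAT on either strand, the core of a common promoter element. The regions are chr11:96075671-96075881 on the minus strand for Atp5g1, chr15:102671128-102671297 on the minus strand for Atp5g2, chr2:73911327-73911576 on the minus strand for Atp5g3 and chr9:108936398-108936632 on the plus strand for Uqcrc1. The Atp5g2 stretch lies inside the GENCODE span of the gene given further on, since RefSeq places this start downstream of the GENCODE one.
Atp5g1: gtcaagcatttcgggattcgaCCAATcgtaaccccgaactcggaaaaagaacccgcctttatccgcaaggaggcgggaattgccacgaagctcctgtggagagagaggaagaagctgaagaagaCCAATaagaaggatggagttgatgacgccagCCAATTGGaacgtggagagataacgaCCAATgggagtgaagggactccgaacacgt
Atp5g2: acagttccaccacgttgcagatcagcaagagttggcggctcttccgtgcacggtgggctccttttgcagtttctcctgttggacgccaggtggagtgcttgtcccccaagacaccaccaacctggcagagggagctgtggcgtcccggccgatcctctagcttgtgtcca
Atp5g3: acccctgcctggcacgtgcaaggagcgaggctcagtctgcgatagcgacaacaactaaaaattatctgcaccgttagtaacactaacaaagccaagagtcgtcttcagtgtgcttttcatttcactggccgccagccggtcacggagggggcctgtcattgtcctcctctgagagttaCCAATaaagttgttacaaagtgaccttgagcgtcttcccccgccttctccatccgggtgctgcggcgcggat
Uqcrc1: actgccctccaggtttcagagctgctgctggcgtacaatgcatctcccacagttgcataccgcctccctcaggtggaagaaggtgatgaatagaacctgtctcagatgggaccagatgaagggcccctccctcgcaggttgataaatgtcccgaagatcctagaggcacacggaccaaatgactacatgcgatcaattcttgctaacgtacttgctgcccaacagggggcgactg

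The Atp5g1 stretch of 211 bases held CCAAT 5 times, the Atp5g3 stretch of 250 bases held it 1 time, and the stretches of Atp5g2 (170 bases) and Uqcrc1 (235 bases) held it 0 times. CCAAT was chosen after these sequences were seen. It occurred on either strand in the full 250 bases of 18 of the 32 members with a RefSeq promoter entry (56.2%), against 37.5% of 27025 genes. The other motifs searched, which do not overlap it in letters, were those of factor families known for genes of the respiratory chain. A perfect match to the palindromic core site of NRF-1 occurred in 3 members (Atp5k, Cox6a1 and Atp5g2, in Atp5g2 among the exon bases left out of the printed stretch), or 9.38% against 0.877% of all genes. CCGGAAG, an ETS site of the kind that GABP binds, occurred in 8 members or 25%, among them Atp5e, Uqcrh and Atp5l, against 7.83% of all genes. These are matches of letters, not measured binding.

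Across cell types, the summed transcripts of the 43 genes were highest in keratinocyte-like, pericyte and smooth muscle-like and gland-like cells, lower in endothelial-like, leukocyte-like and fibroblast-like cells, and lowest in erythroid-like cells. Levels are UMIs of the genes per 1000000 UMIs of the class in a library (CPM). Keratinocyte-like cells were at 20942, 23430.3, 21175 and 22589 CPM, a mean of 22034 ± 1181 (SD, n = 4 libraries), and gland-like cells at 16670.4, 22478, 20118 and 19016 CPM, a mean of 19570.5 ± 2413. The epithelia overlapped between libraries, although within each library the gland-like value was the lower. Endothelial-like cells were at 12968, 14507, 14601 and 13219 CPM and leukocyte-like cells at 11778, 10745, 13006 and 13639.5 CPM. Fibroblast-like cells were at 10106, 11145 and 10381 CPM in the 3 libraries with at least 20 of them. None of these stromal and immune class values reached the range of either epithelium. Within the endothelial-like class, however, the pooled level of the Ackr1 cluster, given further on, lay inside both ranges.

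The 48 pericyte and smooth muscle-like cells, contractile cells of vessel walls, stood apart from the other stroma at 22421, 25467, 19011 and 22569 CPM, from gland-like levels to above any epithelial value, but no library held more than 16 of them. Pooled over libraries they were at 22936 CPM (95% interval 22397 to 23485). Erythroid-like cells, which lose their mitochondria as they mature, were at 2199, 1814, 1449.5 and 2353 CPM, with 36 of 36 measured members at least 1.5-fold lower than in keratinocyte-like cells in both libraries with at least 20 cells, against 71.3% of 8773 measured genes, and none higher, against 0.593%. The low level was not particular to the members. As log2 ratios to keratinocyte-like cells, the member sum was at -3.78 and ribosomal protein transcripts at -4.37. The median was -4.11 over members and -2.23 over all measured genes. The part of mitochondrial loss in these values was not tested. All intervals are exact Poisson or binomial intervals and cover counting error only.

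**Figure D1:**
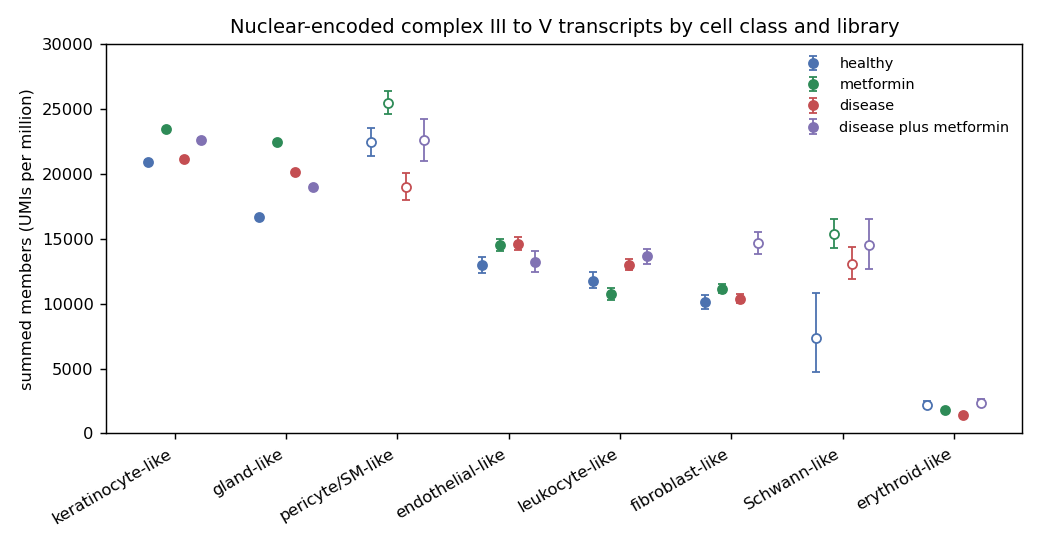
Summed level of the 43 genes, in CPM (vertical axis from 0), by cell class (horizontal axis) and library (colour). Bars are 95% Poisson intervals, often smaller than the point, and open points stand for fewer than 20 cells. Keratinocyte-like and gland-like values lie between 16670.4 and 23430.3, above every endothelial-like, leukocyte-like and fibroblast-like value.

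Taken within each library, the log2 ratio to keratinocyte-like cells was -0.18 ± 0.13 (SD, n = 4) in gland-like, -0.67 ± 0.10 (n = 4) in endothelial-like, -0.85 ± 0.19 (n = 4) in leukocyte-like and -1.05 ± 0.02 (n = 3) in fibroblast-like cells, negative in every library. A member counted as lower when it was at least 1.5-fold lower in every library. Of the 36 members measured, 29 were lower in fibroblast-like cells (12.3% of all 8107 measured genes were), 14 in leukocyte-like (12.2% of 6985), 13 in endothelial-like (8.17% of 6893) and 3 in gland-like cells (27.0% of 9515). None of the 36 was higher in any of these classes, against 17.4%, 10.3%, 13.0% and 18.0% of all measured genes. The median over members was -1.01, -0.81, -0.74 and -0.10, and over all measured genes 0.07, -0.14, 0.07 and -0.31. The classes come from clustering the same cells, so these counts describe them and are no test. They also depend on what the members are counted against. Per ribosomal protein UMI the direction turned, to 1.37 in gland-like, 0.31 in endothelial-like and 0.20 in fibroblast-like cells, with ribosomal protein transcripts at -1.55, -0.98 and -1.25 relative to keratinocyte-like cells on the CPM scale. With mitochondrial genes and the 50 most abundant genes out of the denominator, the gland-like ratio was 0.12.

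The complexes had similar proportions in the epithelia. Complex III, IV and V gave 17.3%, 37.3% and 45.5% of member UMIs in keratinocyte-like cells and 17.9%, 38.6% and 43.4% in gland-like cells. Pericyte and smooth muscle-like cells leaned to complex IV (43.6%, with 40.4% for complex V), and leukocyte-like cells had the lowest share of complex III (13.8%). Within complex III, leukocyte-like cells were at -1.21 ± 0.26 against keratinocyte-like cells, compared with -0.73 ± 0.17 for complex IV and -0.82 ± 0.20 for complex V (log2, SD, n = 4). By role, the gland-like contrast was -0.998 ± 0.10 for the complex III core, -0.0047 ± 0.15 for its small subunits, -0.12 ± 0.13 for the ubiquitous complex IV subunits, -0.30 ± 0.14 for the catalytic F1 head of complex V, -0.38 ± 0.12 for its stalk and -0.21 ± 0.12 for the c-ring. Members were ranked where their highest class, erythroid-like cells aside, held enough of their UMIs, so the filter used the values ranked. Over these 34 members the highest class was pericyte and smooth muscle-like for 17, keratinocyte-like for 11, gland-like for 5 and endothelial-like for 1. The lowest was fibroblast-like for 15 and leukocyte-like for 10. Cox4i2 passed through its 193 UMIs in pericyte and smooth muscle-like cells. Uqcrc2, Uqcrfs1 and Atp5f1, also highest there with 52, 62 and 90 UMIs, did not pass.

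**Figure D2:**
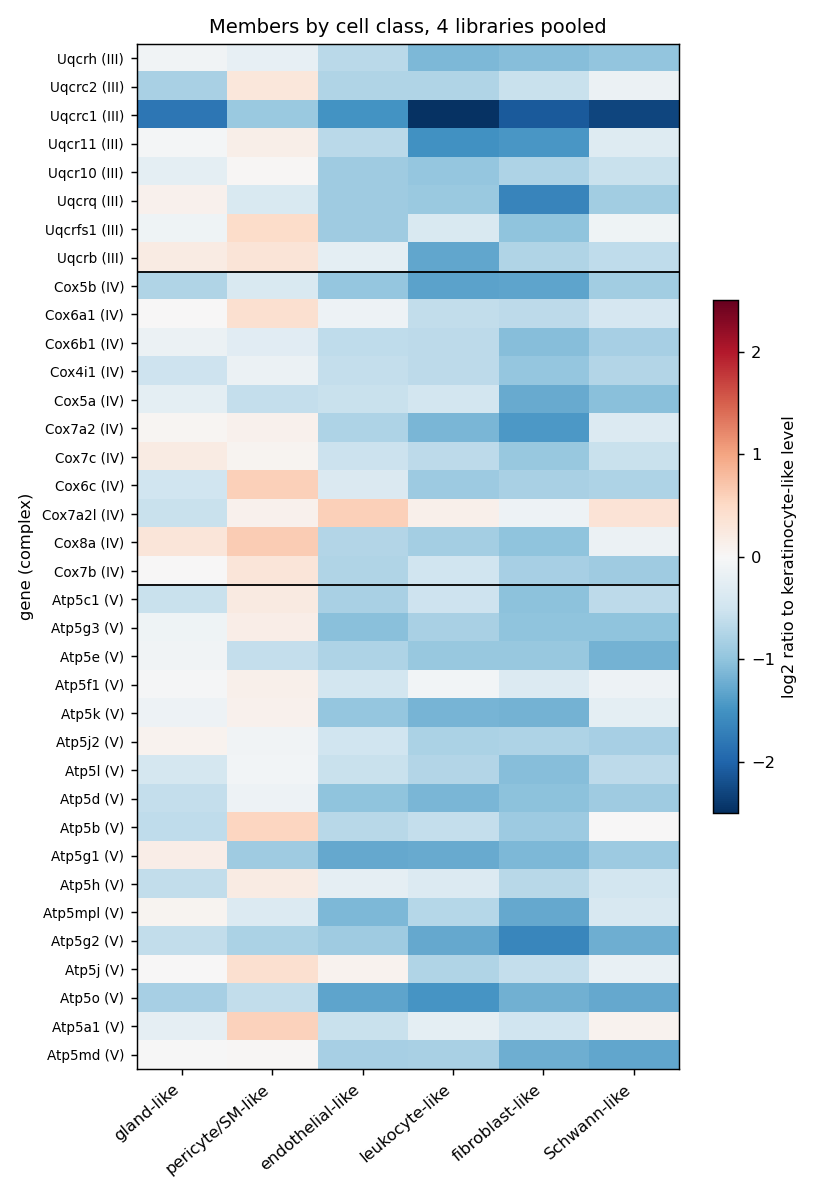
Log2 ratio of each of 36 members (rows, grouped by complex III, IV and V) to its keratinocyte-like level in 6 other classes (columns), with the 4 libraries pooled and CPM as the scale. Blue is lower and red higher. The row of Uqcrc1 is blue in every column, the fibroblast-like column is blue in every row, and Cox7a2l is red in the endothelial-like column.

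In complex III the member that differed most between classes was Uqcrc1 (chr9:108936633-108949623, plus strand, GRCm38), a core protein on the matrix side. It was at 337, 349.9, 322 and 359.8 CPM in keratinocyte-like cells and at 91.9, 109.7, 93.0 and 92.3 CPM in gland-like cells, groups that are far apart in every library. The log2 ratio was -1.83 ± 0.12 (SD, n = 4), the lowest of the 36 members. Endothelial-like cells were at 103, 145, 109 and 111 CPM and leukocyte-like cells at 50.9, 74.5, 50.6 and 71.8 CPM, with log2 ratios of -1.56 ± 0.21 and -2.49 ± 0.25. In fibroblast-like cells the ratio was -2.16 ± 0.52 (n = 3). Uqcrc1 stayed below its keratinocyte-like level per ribosomal protein UMI as well, at -0.28 in gland-like, -0.58 in endothelial-like, -0.91 in fibroblast-like and -1.54 in leukocyte-like cells. Its promoter stretch, shown above, held none of the 3 motifs.

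The partner core protein Uqcrc2 was at 131, 149, 141 and 146 CPM in keratinocyte-like and 70.6, 79.2, 94.6 and 82.3 CPM in gland-like cells, a smaller difference of -0.80 ± 0.16. Uqcrfs1, the Rieske iron-sulphur protein that carries the electron, was at 134, 156, 151 and 155 CPM in keratinocyte-like and 122, 137, 151 and 145 CPM in gland-like cells, with a log2 ratio of -0.10 ± 0.08 that is close to 0. The 3 core genes thus differed by unequal amounts. Of the small subunits, Uqcrh, the hinge protein next to cytochrome c1, was at 778, 879, 801 and 922 CPM in keratinocyte-like and 658, 928, 806 and 778 CPM in gland-like cells, and overlapped between them. Uqcrq, a small membrane subunit, was at 767, 808, 667 and 719 CPM in keratinocyte-like and 736, 913, 823 and 775 CPM in gland-like cells. It overlapped too. Uqcrq differed more in the stroma, at 240.4 CPM in fibroblast-like against 813 CPM in gland-like cells with libraries pooled, a ratio of 3.38.

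In complex IV, the ubiquitous subunits split by cell type. Cox8a, the smallest subunit, was at 1223, 1320.2, 1261 and 1324 CPM in keratinocyte-like and 1368, 1746, 1571 and 1599.8 CPM in gland-like cells, a log2 ratio of 0.29 ± 0.10 and the highest of the 36 members in the gland-like contrast. In pericyte and smooth muscle-like cells Cox8a was at 1888, 2035, 2055 and 2065 CPM, above every other class in every library, with 5 to 16 cells each. Cox4i1, the ubiquitous form of the regulatory subunit 4, went the other way in the glands, at 1181, 1310.0, 1275 and 1353 CPM in keratinocyte-like and 754, 1004, 914 and 881 CPM in gland-like cells without overlap. Cox5b, a zinc-binding subunit, was at 638, 694, 662 and 711 CPM in keratinocyte-like and 335, 433, 421 and 415 CPM in gland-like cells, a ratio of -0.76 ± 0.13, and is 1 of the 3 members at least 1.5-fold lower in gland-like cells in every library. Cox7a2, the ubiquitous form of subunit 7a, overlapped between keratinocyte-like (748, 839, 741 and 748 CPM) and gland-like cells (689, 952, 809.6 and 784 CPM), and was at only 309, 284, 282 and 349.9 CPM in fibroblast-like cells, where the last library held 10 cells. Cox4i1 overlaps the gene models Gm20388 on its own strand and Emc8 on the other, so part of its UMIs could belong to them.

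Cox7a2l, a factor that joins complexes III and IV into supercomplexes and is no subunit of either alone, had an order of its own. It was at 309, 261, 317 and 345 CPM in endothelial-like cells against 178, 204, 197 and 204 CPM in keratinocyte-like and 103, 162, 136 and 133 CPM in gland-like cells. The endothelial-like value was the highest of the 3 in every library, with a log2 ratio to keratinocyte-like cells of 0.65 ± 0.20 (SD, n = 4), while 33 of the 36 members were below 0 there in all libraries. In leukocyte-like cells its ratio was 0.16 ± 0.22 and in fibroblast-like cells -0.19 ± 0.11, the highest of the 36 members in each.

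Tissue-restricted complex IV isoforms were nearly absent from the epithelia and 1 of them was found mainly in vessel-wall cells. Cox4i2 (chr2:152754173-152765037, plus strand, GRCm38), an isoform of subunit 4 known from lung and from oxygen sensing, had 193 of its 220 UMIs (87.7%) in the 48 pericyte and smooth muscle-like cells. It was at 506, 519, 1013 and 659 CPM there and was found in 39 of the 48 cells at a median of 4932.5 UMIs per cell. By contrast 1 Cox4i2 UMI was found in 1440 gland-like cells at a median of 8299.5 UMIs, and 12 in 3752 keratinocyte-like cells. Endothelial-like cells held 3 and fibroblast-like cells 11 UMIs. The gene was not used for the clustering. Cox4i1 was present in the same pericyte and smooth muscle-like cells, at 1259, 1261, 866 and 1107 CPM.

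Cox6b2, known as a testis isoform, had 263 UMIs, of which 108 were in the RNA-rich keratinocyte-like cluster led by Pappa, Sox6 and Col17a1, the cluster with the most UMIs. Its level there was 6.70 CPM, below 14.6 CPM in the mitotic (19 UMIs) and 11.3 CPM in the S-phase cluster (15 UMIs). The larger leukocyte-like cluster was at 20.3 CPM (13 UMIs) and the pericyte and smooth muscle-like one at 20.0 CPM (6 UMIs). Cox6b2 was 0.877% ± 0.148 of Cox6b UMIs in keratinocyte-like cells (SD, n = 4), the rest being Cox6b1. UMIs of the muscle isoforms Cox8b and Cox6a2 came mostly from 2 barcodes. In the disease library 1 barcode with 3321 UMIs held 35 of the 40 UMIs of Cox8b and 13 of the 29 of Cox6a2, together with 402 UMIs of 9 of 9 muscle markers. Another 12 Cox6a2 UMIs lay in 1 leukocyte-like barcode. The 65 UMIs of Cox7a1, the heart and muscle form of subunit 7a, were scattered, with at most 5 in any 1 cell, and the 2 UMIs of Cox7b2 were in gland-like cells.

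**Figure D3:**
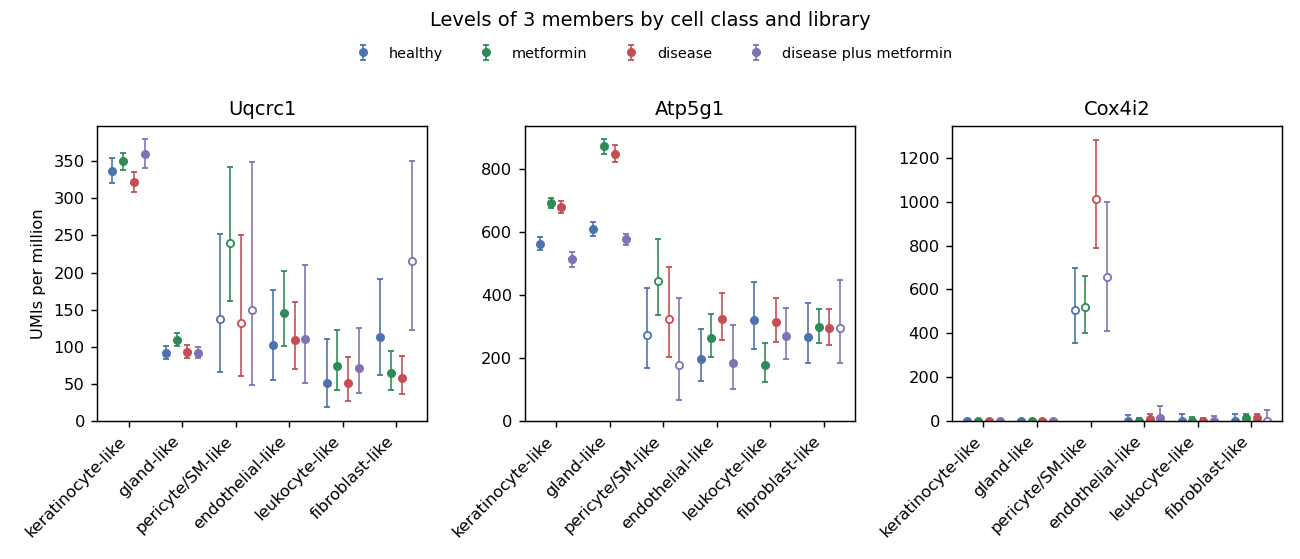
Levels of Uqcrc1, Atp5g1 and Cox4i2 in CPM (vertical axes from 0, each on its own scale) by class and library (colour), with 95% Poisson intervals and open points for fewer than 20 cells. Uqcrc1 is at 322 to 359.8 in keratinocyte-like cells and at 91.9 to 109.7 in gland-like cells, Atp5g1 is lowest in both epithelia in disease plus metformin, and Cox4i2 is near 0 outside the pericyte and smooth muscle-like cells.

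In complex V, the c-ring genes were used in different proportions by the epithelia. Atp5g1 (chr11:96068852-96075670, minus strand) gave 32.0% ± 3.17 of c-ring UMIs in keratinocyte-like and 43.4% ± 3.85 in gland-like cells (SD, n = 4), and Atp5g2 (chr15:102662864-102672352, minus strand) gave 52.7% ± 2.60 and 39.9% ± 2.83. The gland-like share of Atp5g1 was the higher in each of the 4 libraries. Atp5g3 (chr2:73908447-73911326, minus strand) had similar shares, 15.3% ± 0.894 and 16.7% ± 1.16. As levels, Atp5g2 was at 915, 1096, 969 and 1044 CPM in keratinocyte-like and 564, 787, 649 and 653 CPM in gland-like cells without overlap, while the levels of Atp5g1 overlapped between them and are given with the conditions. A share of c-ring UMIs does not depend on the denominator of the CPM. How reads that match several of these near-identical coding sequences were counted is not given in the sources used here.

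Of the F1 head, which makes ATP, the catalytic beta subunit Atp5b was at 399, 410.4, 418 and 448 CPM in keratinocyte-like, 242, 285, 266 and 267 CPM in gland-like and 602, 638, 543 and 599 CPM in pericyte and smooth muscle-like cells, 3 ranges that do not overlap. Atp5e, the small epsilon subunit, was at 1452, 1627, 1344 and 1470.5 CPM in keratinocyte-like and 1307, 1764, 1444 and 1157 CPM in gland-like cells, and these overlap. In the stalk that holds the head in place, Atp5o, the oligomycin-sensitivity protein, was at 521, 542, 509 and 535 CPM in keratinocyte-like and 242, 327, 321 and 297 CPM in gland-like cells, a ratio of -0.84 ± 0.19 and the last of the 3 members lower there in every library. Its neighbours in the stalk differed less, with Atp5h at -0.62 ± 0.13, Atp5f1 at -0.03 ± 0.07 and Atp5j at 0.02 ± 0.08. GENCODE M21 lists another gene model named Atp5o on the same strand, and the deposited symbols hold 1. Per ribosomal protein UMI the gland-like ratios of Cox5b, Atp5o and Atp5g2 were 0.79, 0.71 and 0.94.

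Among keratinocyte layers the members were highest in the clusters led by histone genes and by mitotic genes, and lowest in cells that express Odam. Pooled over libraries, the histone-expressing S-phase cluster was at 28888 CPM and the mitotic cluster led by Ube2c and Cdc20 at 28156 CPM. The Krt15 and Krt76 cluster was at 25498 CPM, the soft-mucosa cluster led by Krt4 and Krt13 at 25211 CPM, the Gpha2 cluster at 23946 CPM, the H19 and Barx2 cluster at 23682 CPM and the basal Cxcl14, Krt5 and Krt14 cluster at 23506 CPM. The RNA-rich cluster led by Pappa and Sox6 was at 20662 CPM and the keratinized Krt10 cluster at 19408 CPM. As the RNA-rich cluster also raised 12 of 12 mitotic and 12 of 14 S-phase markers, not all clusters with division markers were high. The cluster led by Sprr2d and Odam, a gene known from the junctional epithelium, was at 10422 CPM (10042 to 10813). The highest was 2.77 times the lowest.

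Against the basal Cxcl14 cluster, the summed members were at 0.29 ± 0.07 in S-phase, 0.28 ± 0.04 in mitotic, 0.12 ± 0.08 in Krt15 and Krt76, 0.07 ± 0.14 in soft-mucosa, -0.20 ± 0.15 in RNA-rich and -0.25 ± 0.10 in Krt10 cells (log2, SD, n = 4 libraries). At least 1.5-fold in every library, 3 of 34 measured members were higher in S-phase cells (Cox7a2, Uqcr10 and Atp5j, against 13.7% of 630 genes) and 1 of 34 in mitotic cells (Cox7a2, against 7.74% of 607 genes). In soft-mucosa cells 2 of 36 were higher (Cox6a1 and Atp5md, against 14.5% of 723 genes). These shares are below or near those of all measured genes. Atp5e and Atp5g2 were lower in both the RNA-rich cells (2 of 36, against 2.21% of 5979 genes) and the Krt10 cells (2 of 32, against 11.8% of 424 genes). In the RNA-rich cells 0 of 36 members were higher, against 52.6% of genes. The median there was -0.22 over members and 1.42 over all measured genes, so the typical gene rose while the members did not. In the Odam cluster, with 83 cells and 2 libraries large enough, the sum was at -1.04 ± 0.20 and 20 of 35 members were lower, against 44.2% of 672 genes. The median was -0.93 over members and -0.79 over all genes measured there, so most genes were lower in that contrast. With barcodes limited to those that hold both Malat1 and mitochondrial UMIs, the ratio of the highest to the lowest keratinocyte-like cluster was 1.36.

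Among gland subtypes the contrast was between a cluster led by Lipf, Wfdc12 and Spink4 and a cluster led by Ptprn2. Their raised markers were similar, with 10 and 9 of 11 mucous, 3 and 3 of 13 serous and 8 and 7 of 13 duct markers. The Lipf cluster was at 22256, 23598, 23166 and 22839.8 CPM, a narrow range, and the Ptprn2 cluster at 8214, 11711, 10134 and 13259 CPM. The difference was -1.11 ± 0.28 on the log2 scale (SD, n = 4), and 29 of 36 members were at least 1.5-fold lower in every library, against 8.14% of 5908 genes. The members outside this count were Atp5g3, Uqcrc2, Uqcrc1, Cox7a2l, Atp5b, Atp5j and Atp5a1. The Olfm4, Tff2 and Smgc cluster was at 18859.7, 22032, 23442 and 18219.6 CPM, at -0.16 ± 0.15 from the Lipf cluster, with 0 of 36 members called lower, against 7.55% of 4530 genes. The Sbpl and Bpifb1 cluster was at 21304 CPM and the Ltf and Krt19 cluster at 21783 CPM, pooled.

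The mitochondrially encoded transcripts of the same complexes (mt-Cytb, mt-Co1, mt-Co2, mt-Co3, mt-Atp6 and mt-Atp8) did not follow the nuclear ones between clusters. In the gland, the Ptprn2 cluster had the lowest nuclear level, 11303 CPM pooled, and the highest mitochondrially encoded level, 47314 CPM, a ratio of 0.239 nuclear to mitochondrial UMIs. The Lipf cluster stood at 22994 and 25335 CPM, a ratio of 0.908, and the Odam cluster at 10422 and 36103 CPM, a ratio of 0.289. In most keratinocyte-like clusters the ratio was far above 1. It was 15.0 in the Krt15 and Krt76 cluster, 20.6 in S-phase cells, 24.9 in mitotic cells and 99.7 in the Gpha2 cluster, whose mitochondrially encoded level was 240.4 CPM, but 0.625 in the RNA-rich cluster. Within the 2 largest keratinocyte-like clusters, nuclear levels of barcodes with and without a mitochondrial UMI were close, at 25466 and 25543 CPM in the Krt15 and Krt76 cluster and at 23790.4 and 23222 CPM in the basal cluster. They were farther apart in the Odam cluster, at 9378 and 15386 CPM, and in the Krt10 cluster, at 18482 and 20942 CPM (log2 of without over with 0.18, 0.12 to 0.24). Over whole classes, which mix clusters, the same log2 ratio was 0.24 in keratinocyte-like and 0.34 in gland-like cells.

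**Figure D4:**
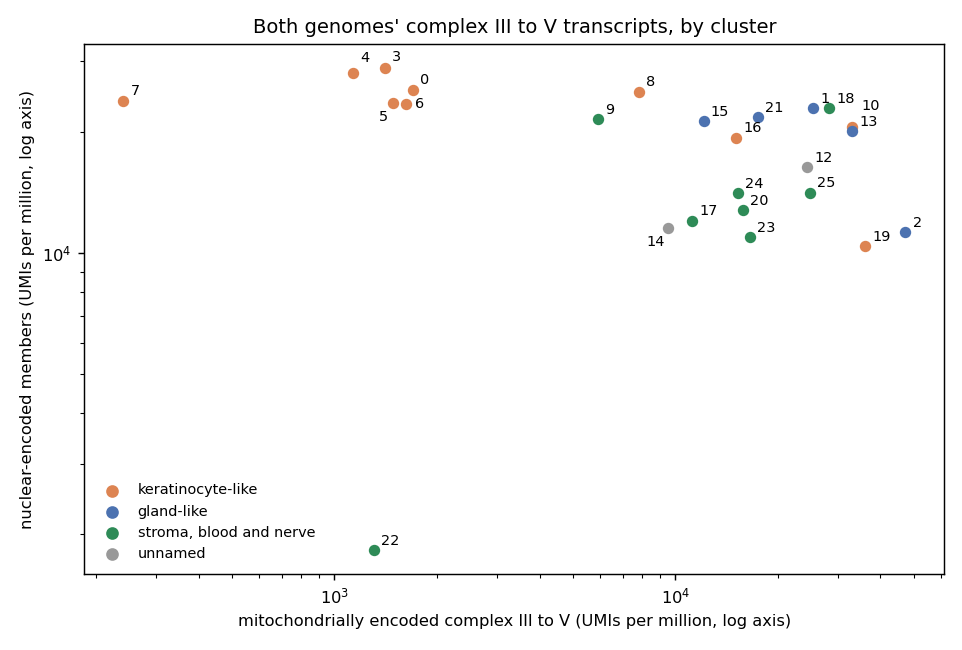
Nuclear-encoded members (vertical, CPM, log axis) against the mitochondrially encoded subunits of complexes III to V (horizontal, CPM, log axis), with 1 numbered point per cluster and libraries pooled. Clusters 0 and 3 to 7 (keratinocyte-like) have low mitochondrially encoded and high nuclear levels, while clusters 2 (Ptprn2 gland cells) and 19 (Odam keratinocytes) have the opposite. Cluster 22 is erythroid-like.

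Over whole classes the nuclear to mitochondrial ratio was 0.696, 1.18, 0.901 and 1.07 in keratinocyte-like cells, a mean of 0.963 ± 0.213 (SD, n = 4), and 0.493, 0.952, 0.698 and 0.613 in gland-like cells, a mean of 0.689 ± 0.194. These class values weigh the RNA-rich cluster heavily, as it held 56.1% to 74.4% of keratinocyte-like UMIs. With every cell given equal weight the keratinocyte-like ratio was 4.54. Whether the many keratinocyte-like barcodes without mitochondrial RNA were intact cells was not tested. In the stroma, the Flt1 endothelial-like cluster was at 12798 CPM of members and the venular Ackr1 cluster, with a median of 745 UMIs per cell, at 21533 CPM. The endothelial-like class values and contrasts above pool these unlike clusters.

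In the keratinocyte-like cells, metformin without disease went with slightly higher member levels, and the disease and healthy libraries were nearly level. The sum was 1.12-fold higher in the metformin than in the healthy library (log2 0.16, 95% interval 0.15 to 0.17), 1.01-fold higher in disease than in healthy (0.02, 0.00 to 0.03) and 1.07-fold higher in disease plus metformin than in disease (0.09, 0.08 to 0.11). Above 0 were 35 of 37 measured members, 23 of 37 and 34 of 37. No member differed 1.5-fold in any of the comparisons. Of all measured genes, 3.50% were higher and 20.9% lower in the first, 4.65% and 4.21% in the second, and 2.32% and 10.6% in the third. The median over members was 0.16, 0.04 and 0.10, and over all genes -0.23, 0.01 and -0.13. Comparisons with healthy share that library, and those with disease share the disease library. Within clusters the direction was mixed, with the sum above 0 in 3, 4 and 4 of 8 keratinocyte-like clusters, between -0.13 and 0.19. Per ribosomal protein UMI the ratios were -0.018, 0.072 and -0.077, with ribosomal protein transcripts at 0.18, -0.06 and 0.17. Mitochondrially encoded subunits of the same complexes were at -0.60, -0.36 and -0.15, Malat1 at -0.50, 0.29 and -0.52, and the RNA-rich cluster held 74.4%, 56.1%, 70.1% and 61.4% of keratinocyte-like UMIs in the 4 libraries. The part of these measures in the result was not tested.

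Members were ordered by the bound of their interval nearest 0. The members farthest above 0 in keratinocyte-like cells with metformin were the c-ring genes Atp5g1, at 694 CPM with metformin and 564 CPM in healthy, and Atp5g2, at 1096 and 915 CPM, together with Atp5l, the g subunit of the membrane part, at 868 and 717 CPM. Their log2 ratios were 0.30, 0.26 and 0.28. The catalytic genes Atp5a1 and Atp5b, the alpha and beta subunits, were at -0.01 and 0.04 and Cox6a1 at -0.00. In disease, Atp5g1 was again the highest member, at 0.27 (95% interval 0.20 to 0.34). The next by interval bound were Atp5j2, the f subunit, at 0.15 and Cox4i1 at 0.11, while Uqcrfs1 (0.17) and Atp5f1 (0.15) had larger ratios with wider intervals. The lowest were Atp5md and Atp5k, small membrane subunits of the ATP synthase dimer, at -0.29 and -0.23, and Uqcrq at -0.20. With metformin in disease, Uqcrh (0.20), Atp5l (0.20) and Atp5mpl (0.22), another small membrane subunit, had the interval bounds farthest above 0, next to Cox5a (0.21) and Atp5md (0.20). The lowest were Atp5g1, Atp5f1 of the stalk at -0.04 and Cox6b2 at -0.44 (95% interval -1.33 to 0.38).

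In the gland-like cells the members were higher in the metformin and the disease library than in the healthy one, and a little lower in disease plus metformin than in disease. The sum was 1.35-fold higher with metformin (log2 0.43, 95% interval 0.42 to 0.44), 1.21-fold higher in disease (0.27, 0.26 to 0.28) and 0.945-fold in disease plus metformin relative to disease (-0.08, -0.09 to -0.07). All 36 measured members were above 0 in the first comparison and all 36 in the second, and 28 of 36 were below 0 in the third. The median over members was 0.42, 0.27 and -0.05, and over all genes 0.17, 0.17 and -0.07. At least 1.5-fold higher with metformin were 2 of 36 members, against 13.0% of 9358 genes, and none was lower, against 3.22%. They were Cox6c, a ubiquitous complex IV subunit, at 862 CPM with metformin and 569 CPM in healthy, and Cox7a2l at 162 and 103 CPM. No member differed 1.5-fold in disease (13.3% of 8991 genes higher, 3.79% lower) or in disease plus metformin against disease (5.30% of 9572 genes higher, 7.49% lower).

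Several measures moved with these gland values. Ribosomal protein transcripts were at 0.63, 0.43 and -0.16 in the same comparisons, and mitochondrially encoded subunits of complexes III to V at -0.52, -0.23 and 0.11, opposite in sign to the nuclear ones. The nuclear long RNA Malat1 was at -0.44, -0.27 and -0.13. The Ptprn2 cluster, low in members, held 27.5%, 14.2%, 23.0% and 36.2% of gland-like UMIs in the 4 libraries. The Sbpl and Bpifb1 cluster held 17.4%, 25.4%, 0% and 1.66%, and the Ltf and Krt19 cluster 1.41%, 3.70%, 16.5% and 4.81%, so the libraries differed in which gland cells they held. With each cluster given equal weight the sums were at 0.22, 0.20 and -0.06, and per ribosomal protein UMI at -0.20, -0.16 and 0.08, a reversed direction in each. In the 3 gland-like clusters with at least 20 cells in every library the sum was above 0 in 3 of 3 with metformin (0.08 to 0.51) and in 3 of 3 in disease (0.06 to 0.31). In disease plus metformin it was above 0 in the Ptprn2 cluster (0.39) and lowest in the Olfm4 cluster (-0.36). The part of these measures in the result was not tested.

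The other named members of the gland-like comparisons were subunits of the membrane part and of the core. With metformin, Atp5md was at 0.57 and Atp5l at 0.54, while Uqcrc2 (0.17), Uqcrfs1 (0.17) and Atp5a1 (0.19) were closest to 0. In disease, Atp5g1 (0.48), Cox5a (0.46), another ubiquitous complex IV subunit, and Uqcrb (0.42), a small ubiquinone-binding subunit, were highest by interval bound, with Uqcrc2 and Atp5h also at 0.42 and 0.42, and Uqcrc1 (0.02), Atp5a1 (0.14) and Atp5b (0.14) lowest. In disease plus metformin against disease the lowest by interval bound were Atp5g1, Atp5e at -0.32 (95% interval -0.37 to -0.27) and Atp5l at -0.15 (95% interval -0.22 to -0.07). Uqcrc2 at -0.20 (95% interval -0.38 to -0.02) and Atp5k at -0.15 had lower ratios than Atp5l. The highest were Atp5d (0.04), Cox8a (0.03) and Atp5a1 (0.02), all near 0.

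**Figure D5:**
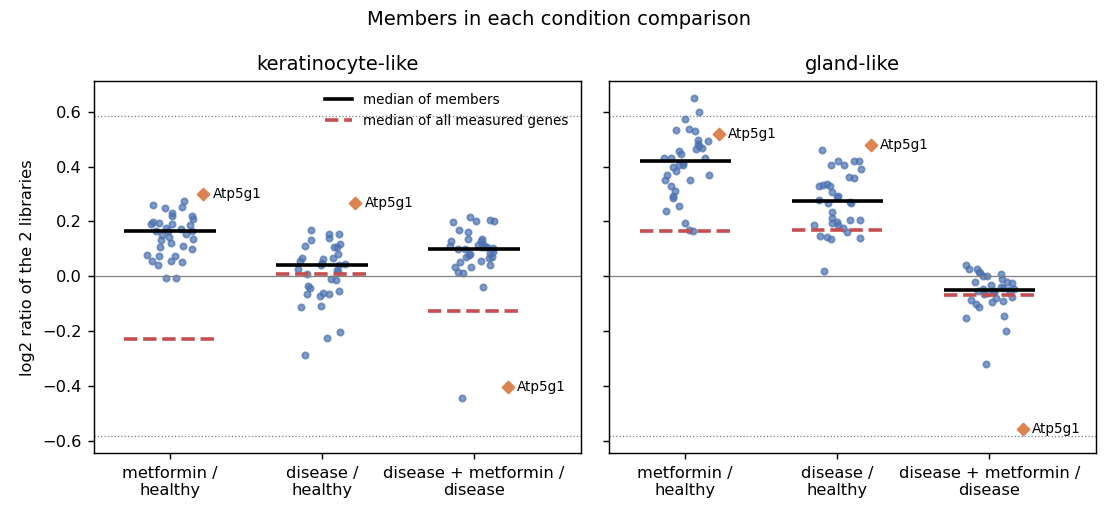
Log2 ratio of the 2 libraries for each measured member (points) in 3 comparisons, keratinocyte-like cells on the left and gland-like cells on the right. Black lines are the median of members, dashed red lines the median of all measured genes, dotted lines mark 1.5-fold, and the orange diamond is Atp5g1. Atp5g1 is at 0.30, 0.27 and -0.40 on the left and at 0.52, 0.48 and -0.56 on the right, while the median of members with metformin in disease is 0.10 and -0.05.

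Atp5g1 departed from the rest of the complex in the diseased gingiva with metformin. It was at 564, 694, 679.9 and 514 CPM in keratinocyte-like and 609.6, 873, 849.7 and 578 CPM in gland-like cells, lowest in disease plus metformin in both. Against disease the log2 ratio was -0.40 (95% interval -0.48 to -0.33) in keratinocyte-like and -0.56 (95% interval -0.62 to -0.49) in gland-like cells, the lowest of 36 gland-like members. The direction held in 8 of 8 keratinocyte-like clusters and in 3 of 3 gland-like clusters. These clusters share the same libraries and are no replicates, and Uqcrc1 was higher in 8 of 8 keratinocyte-like clusters in this comparison. Some Atp5g1 intervals overlap, as in the Ptprn2 gland cluster (350 to 427 CPM in disease, 339 to 386 in disease plus metformin). Metformin against healthy was less even for Atp5g1, higher in 4 and lower in 4 of 8 keratinocyte-like clusters and higher in 3 of 3 gland-like ones, while disease against healthy was higher in 7 of 8 and 3 of 3. In the basal Cxcl14 cluster, for example, Atp5g1 was at 724 CPM in disease and 607 in disease plus metformin, in the soft-mucosa cluster at 941 and 579, and in the Olfm4 gland cluster at 1080.3 and 469. Under the alternatives of cell filter, weighting and denominator it lay between -0.57 and -0.22 in keratinocyte-like and between -0.77 and -0.40 in gland-like cells.

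The other c-ring genes were near 0 or above it. In the same comparison Atp5g2 was at 0.11 (95% interval 0.05 to 0.17) and Atp5g3 at 0.11 (95% interval 0.00 to 0.22) in keratinocyte-like cells, and at 0.01 and -0.04 in gland-like cells. As a share of c-ring UMIs, Atp5g1 was 32.0, 32.8, 35.4 and 27.8% in keratinocyte-like and 43.3, 44.3, 47.7 and 38.3% in gland-like cells. The intervals of disease and disease plus metformin do not meet in either class (34.6% to 36.3% and 26.7% to 28.9%, 46.6% to 48.8% and 37.4% to 39.3%). Endothelial-like cells had shares of 23.6, 26.8, 30.5 and 24.6%, leukocyte-like cells of 34.2, 23.7, 35.2 and 30.6% and fibroblast-like cells of 37.5, 37.6, 43.4 and 25.0%, the last from 10 cells. In each of these 5 classes the disease library had the highest share of Atp5g1, though in the endothelial-like and leukocyte-like classes the intervals of disease and disease plus metformin overlap. In erythroid-like cells the disease library was the lower, at 33.3% from 5 Atp5g1 UMIs, against 40.8% from 31 UMIs with metformin. With 1 library per group, a difference between conditions and one between single libraries cannot be told apart.

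Over all kept cells, which mix the classes, the restricted isoforms Cox4i2 and Cox6b2 were the members at least 1.5-fold apart. They were the 2 of 38 measured members higher in disease than in healthy, where 12.4% of 12577 genes were higher and 4.11% lower, and the 2 of 38 lower in disease plus metformin than in disease, where 21.7% of 12547 genes were lower and 7.17% higher. In metformin against healthy none of 38 was past 1.5-fold, against 7.24% of 12867 genes higher and 8.96% lower. Cox4i2 was at 3.50 CPM in healthy, 6.30 in disease and 2.01 in disease plus metformin. The pericyte and smooth muscle-like cells that hold it numbered 14, 16 and 5 in these libraries. Cox6b2 was at 3.68, 6.22 and 3.52 CPM.

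Other genes of the pathway, taken from lists by function, gave a frame for the members. Nuclear complex I genes, the entry point of electrons and a known target of metformin, were at 0.15, 0.02 and 0.08 as a sum in keratinocyte-like and at 0.36, 0.25 and -0.06 in gland-like cells, close to the members in each comparison. With metformin 0 of 37 complex I genes were 1.5-fold higher in keratinocyte-like (3.50% of all genes were) and 2 of 36 in gland-like cells (13.0% of all genes were), Ndufb2 (377 and 246 CPM) and Ndufab1 (251 and 163 CPM). The name match for complex I also took Ndufa4l2, which is known as a hypoxia-induced relative of Ndufa4. Ndufa4l2 was at 37.0 CPM in disease plus metformin and 82.7 CPM in disease in keratinocyte-like cells. It was the 1 of 37 that was lower there, against 10.6% of 9835 genes. Complex II genes were at 0.04 and 0.20 with metformin, with 0 of 4 past 1.5-fold in either class. Of the genes that assemble complexes III to V, 1 of 30 was higher and 3 of 30 lower with metformin in keratinocyte-like cells, and 3 of 30 were higher and 1 of 30 lower in gland-like cells. Over all genes 3.50% were higher and 20.9% lower in the first class and 13.0% and 3.22% in the second, so these counts, like the 2 of 36 for complex I, are near or below the background. The gene higher in both was Lyrm7, a chaperone known to hold the Rieske protein Uqcrfs1 before it enters complex III. It was at 12.5 CPM with metformin (129 UMIs) and 3.63 CPM in healthy (17 UMIs) in keratinocyte-like cells, and at 13.5 CPM (82 UMIs) and 3.27 CPM (16 UMIs) in gland-like cells, with log2 ratios of 1.78 (95% interval 1.04 to 2.60) and 2.05 (1.26 to 2.92). Lyrm7 was also higher in disease than in healthy, at 6.93 CPM in keratinocyte-like and 8.33 CPM in gland-like cells, so that healthy was the lowest library in both. The others were Sco2 and Cox11, copper factors of complex IV, higher in gland-like cells, Taco1, lower in gland-like cells, and Ttc19, Sco1 and Lrpprc, lower in keratinocyte-like cells.

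Regulators of mitochondrial biogenesis were the list with lower values, with 4 of 10 measured genes lower with metformin in keratinocyte-like cells and a median of -0.52, against 20.9% lower and a median of -0.23 over all genes. The nuclear RNA Malat1 was at -0.50 in the same comparison, and its part was not tested. They were Ppargc1b, a coactivator of mitochondrial genes, at 8.50 CPM with metformin and 16.5 CPM in healthy, Pprc1, its relative, at 8.11 and 12.8 CPM, Nrf1, the factor that gives the NRF-1 motif its name, at 35.3 and 56.2 CPM, and Tfb1m, a mitochondrial ribosomal RNA methylase, at 4.54 and 10.5 CPM. In gland-like cells 1 of 10 was higher, Tfam, the packaging and transcription factor of mitochondrial DNA, at 24.3 and 14.3 CPM. Of all genes 13.0% were higher there, so this count is below the background. None of 10 was past 1.5-fold in disease against healthy in keratinocyte-like cells, against 4.65% of all genes higher and 4.21% lower. In disease plus metformin against disease 1 of 10 was lower in these cells, against 10.6% of all genes, with medians of -0.24 and -0.13.

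Partners of the members outside the name rule differed between the epithelia. Cytochrome c, encoded by Cycs, carries electrons from complex III to IV and was at 221 CPM with metformin and 116 CPM in healthy gland-like cells, against 227 and 192 CPM in keratinocyte-like cells. Cyc1, the cytochrome c1 subunit of complex III, was at 117 and 93.3 CPM in gland-like and 190.4 and 172 CPM in keratinocyte-like cells. Ndufa4, a complex IV subunit despite its name, was at 1303 CPM in gland-like and 729 CPM in keratinocyte-like cells with libraries pooled. Over 21 sums of a class in a library, the genes whose log2(CPM + 1) followed the member sum most closely were Tomm7 (Pearson r = 0.981), Mrps14 (0.980), Hint1 (0.979), Micos13 (0.978) and Nop10 (0.973), among 8387 genes. The complex I sum had r = 0.989, the mitochondrially encoded subunits 0.935 and ribosomal proteins 0.900. The 21 points share libraries and include erythroid-like sums far below the rest.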

How the data were processed

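Raw UMI counts per gene and barcode were deposited by the authors as 1 filtered matrix per library. They were made with Cell Ranger 7.0.1 per the file headers and the submitters' processing notes, which also name mm10 and bcl2fastq. The annotation release, the use of intronic reads and any cell filter beyond Cell Ranger's are not given in the sources used here. No deposited barcode had fewer than 500 UMIs. Kept were barcodes with 200 or more genes and no more than 20% of UMIs from mitochondrial genes. Of these Scrublet called 9 of 7134 (0.126%), too few for it to have worked. These were removed, which left 7125, and other doublets remain.

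With scanpy 1.11.5 on Python 3.11.15, counts scaled to 10000 per cell were logged. From them 2000 variable genes, without members and mitochondrial genes, gave 30 principal components, 15 neighbours and Leiden clusters at resolution 1 (leidenalg 0.10.2, seed 1). A cluster was named where it held at least 20 cells, at least 3 markers of a list were raised and no other list came close. A minimum share of raised markers, agreement with the leading genes and a depth rule also applied. The Dcpp and Bpifa2 cluster raised 22 of 26 gland but also 14 of 23 keratinocyte markers. It stayed unnamed and is in no gland-like value. Names rebuilt this way may differ from the study's.

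Levels are summed UMIs per 1000000 UMIs (CPM), with exact Poisson 95% intervals. Ratios between 2 libraries have exact binomial intervals (scipy 1.17.1). Both cover counting error only and not the spread between mice. Class contrasts are log2 ratios within a library, averaged over libraries with at least 20 cells of the class. A gene was measured with at least 50 UMIs over the 2 sums compared, and the fold used for calls was 1.5. For a count of 0, a floor of 3 UMIs was used. Poisson counts were simulated for metformin against healthy, with 200 genes changed 2-fold. The intervals held the true value for 95.2% of 10508 genes in keratinocyte-like and 96.2% of 9342 in gland-like cells. These draws follow the model behind the intervals, so coverage near 95% was built in. Spread between cells or mice was not simulated. The 1.5-fold rule called 96.4% and 98.3% of changed genes and 2.80% and 2.12% of unchanged ones.

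Named members were, in each complex, the 2 with the most UMIs and the 2 with the largest ratio of highest to lowest class, all restricted isoforms and c-ring genes, and the 3 highest and 3 lowest members of each condition comparison and class by the interval bound nearest 0 (ties by ratio). Other genes were chosen after their values were seen: Uqcrc2, Uqcrfs1, Cox5b, Cox7a2l, Atp5b, Atp5h, Atp5f1 and Atp5j among classes, members named for ratios beyond that order, those named in cluster contrasts, and the pathway genes named singly. In GENCODE M21, 6 members overlap another gene on the same strand and 14 on the opposite one. The members and lists were chosen with earlier results of these data known. Alternatives were a stricter cell filter, other denominators, weightings and clusterings, and leaving out each library from the class contrasts.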

Additional observations from a re-analysis of the deposited data

Results flagged for a closer look

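Metformin went with opposite directions in healthy and diseased gingiva for 3 of the members named in the report and for 1 sum. They were not alone in this, since 36 of 36 gland-like members were above 0 without disease and 28 of 36 below 0 with it. Nor was it particular to the members, as the gland-like median over all measured genes was 0.17 without and -0.07 with disease. Over ribosomal protein genes it was 0.62 and -0.17. Each value is the log2 ratio of disease plus metformin to disease minus that of metformin to healthy, and with 1 library per group the difference was not tested. For Atp5g1 it was -1.08 in gland-like cells, from 0.52 without and -0.56 with disease, and -0.70 in keratinocyte-like cells, from 0.30 and -0.40. The keratinocyte-like value without disease was uneven, with Atp5g1 higher in 4 and lower in 4 of 8 clusters. Atp5e, the epsilon subunit of the F1 head, gave -0.75 in gland-like cells, from 0.43 and -0.32. Atp5l, subunit g of the membrane part, gave -0.68 there, from 0.54 and -0.15. The summed members of gland-like cells gave -0.51, from 0.43 and -0.08. Per ribosomal protein UMI the gland-like ratio without disease was -0.11 for Atp5g1, -0.19 for Atp5e, -0.09 for Atp5l and -0.20 for the sum. The opposite directions of Atp5g1 and Atp5e in gland-like cells thus did not hold on that scale. In keratinocyte-like cells those of Atp5g1 held under every alternative run, at 0.11 to 0.34 without and -0.57 to -0.22 with disease.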

How the results depend on the processing

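No paired analysis was possible because each group has 1 library. Leaving out 1 library in turn gave class contrasts of -0.22 to -0.13 (gland-like), -0.72 to -0.64 (endothelial-like) and -1.06 to -1.04 (fibroblast-like against keratinocyte-like). Of the summary values under alternatives, 49 stayed within their error, 54 moved beyond it and 11 turned in direction, and of the values for single members and counts of members 186, 62 and 8. In most cases the error is counting error, which is small at this depth, and the cause was not tested. For the erythroid-like and leukocyte-like sums no alternatives were run.

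Ribosomal protein UMIs as denominator, chosen after seeing the data, turned the class contrasts to 1.37 (gland-like), 0.31 (endothelial-like) and 0.20 (fibroblast-like). They turned metformin against healthy to -0.018 in keratinocyte-like and -0.20 in gland-like cells, disease against healthy to -0.16 in gland-like cells, and disease plus metformin against disease to -0.077 and 0.077. Disease against healthy in keratinocyte-like cells was 0.072. This denominator moved the median of all genes to 1.23, 1.06 and 1.32 in the gland-like, endothelial-like and fibroblast-like contrasts, from -0.31, 0.07 and 0.07. It turned Cox5b to 0.79, Atp5o to 0.71 and Atp5g2 to 0.94 in gland-like cells, and metformin against healthy in gland-like cells to -0.11 for Atp5g1, -0.027 for Cox6c, -0.19 for Atp5e and -0.087 for Atp5l, with Atp5l at 0.013 in disease plus metformin against disease. No member then stayed 1.5-fold lower in gland-like cells and 34 of 36 were higher. The median over all genes was 1.23 there, so these counts are no result about the members. For this and the alternatives below, counts of members are given without the share of all genes and describe the settings only.

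Without mitochondrial genes and the 50 most abundant genes in the denominator, levels were 29962 CPM in keratinocyte-like and 32669.6 CPM in gland-like cells, and class contrasts 0.12 (gland-like, turned), -0.83 (endothelial-like) and -1.23 (fibroblast-like). The ratio of the highest to the lowest cluster was 3.02 in keratinocyte-like and 2.10 in gland-like cells. In gland-like cells metformin against healthy was 0.23, disease against healthy 0.10 and disease plus metformin against disease -0.035, and in keratinocyte-like cells disease against healthy turned to -0.023 and disease plus metformin against disease was 0.13. Members lower in gland-like cells went from 3 to 1, Uqcrc1, and in endothelial-like cells from 13 to 21.

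With every cell weighted equally, the keratinocyte-like level was 23934 CPM, its nuclear to mitochondrial ratio 4.54, the gland-like contrast -0.47 and the fibroblast-like -1.21. Cluster ratios were 2.24 and 2.84. The keratinocyte-like comparisons were 0.024, 0.045 and 0.0068, and in gland-like cells metformin against healthy was 0.37 and disease plus metformin against disease -0.13. Members lower in gland-like cells were 10.

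Without the deepest 5% of barcodes, the keratinocyte-like level was 23392 CPM, its ratio 4.05, and the endothelial-like and fibroblast-like contrasts -0.79 and -1.11. Cluster ratios were 2.42 and 2.32. Keratinocyte-like comparisons were 0.13, 0.0027 and 0.19, and gland-like 0.37, 0.20 and -0.10. Members lower in gland-like cells were 9.

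In barcodes with both Malat1 and mitochondrial UMIs, the keratinocyte-like ratio was 0.707, the fibroblast-like contrast -0.99, the keratinocyte-like cluster ratio 1.36 and metformin against healthy in keratinocyte-like cells 0.20. Under the stricter cell filter (500 genes or more, 10% mitochondrial UMIs or less), cluster ratios were 1.49 and 1.82, keratinocyte-like metformin and disease against healthy 0.14 and 0.0038, and the gland-like comparisons 0.39, 0.23 and -0.061. At Leiden resolution 2, the gland-like cluster ratio was 3.47, metformin against healthy 0.15 in keratinocyte-like and 0.49 in gland-like cells, and the other gland-like comparisons 0.36 and -0.12. With clusters weighted equally, keratinocyte-like metformin against healthy turned to -0.0021, disease plus metformin against disease was 0.0065, and gland-like comparisons were 0.22, 0.20 and -0.063. Uqcrc1 stayed below its keratinocyte-like level in the 4 class contrasts, and Atp5g1 lower in disease plus metformin than in disease, under every alternative run for them.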

Other observations

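Cells that stayed unnamed held members at levels of their own. The 1017 barcodes of a cluster led by the salivary secretory genes Dcpp and Bpifa2 were at 11541 CPM pooled, with 5045 CPM in healthy, 15118 CPM in metformin and 9899 CPM in disease plus metformin. A cluster of 206 cells led by the contractile genes Cnn1 and Mylk was at 16366 CPM. It held 29 of the 263 UMIs of Cox6b2. A cluster of 9 cells led by the platelet genes Pf4 and Ppbp was at 11669 CPM, and 5 of its cells held 11 Cox6b2 UMIs, or 179 CPM. Cox6b2 gave 17.0% of Cox6b UMIs in erythroid-like cells, from 10 UMIs, against 0.877% in keratinocyte-like cells.

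The muscle isoforms Cox8b and Cox6a2 were found together in 1 barcode of the disease library, whose cluster was the basal Cxcl14 keratinocyte-like one and which also held muscle markers. Whether it is a doublet or a muscle cell among keratinocytes was not tested.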
